A study of Mus musculus with 3 samples.

Results

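The genes described here are 46 nuclear-encoded mouse genes of the tricarboxylic acid (TCA) cycle and of mitochondrial upkeep. They were listed by function: 17 TCA cycle subunits, 3 genes of the malate-aspartate shuttle, 5 of mitochondrial dynamics and cristae, 3 of protein import, 8 of protein quality control, 6 carriers, pores and creatine kinase, and 4 of mitochondrial DNA maintenance. All 46 were found among the 55401 mouse gene identifiers of the count tables in every library.

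The libraries came from heart cells, labelled adult cardiomyocyte, of tamoxifen-treated mice (the labels spell it tarmoxifen), dispensed into nanowells on the iCELL8 platform, with 1 library for each of days 1, 2 and 3. The genotype label is D1_INO80_OE for day 1, D2_INO80_OE for day 2, and both D3_INO80_OE and D3_Ctrl for day 3, so treatment with tamoxifen is shared by every group, the control of day 3 included. Named in the title of the series are Myh6-MCM, a tamoxifen-activated Cre whose promoter is active in heart muscle cells, and Ino80fl/fl, floxed alleles of the ATPase of the INO80 chromatin remodeller; beyond the word adult, the labels give no age, and neither sex nor number of animals. The floxed alleles of the title and the INO80_OE of the labels do not name the same kind of change. Which alleles the mice carried could not be worked out. No file assigns a day 3 well to either genotype label.

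Day 3 wells were therefore divided by their own Ino80 level. Levels are counts per 1000000 nuclear-encoded counts (CPM). Wells with Ino80 at 1000 CPM or above are called Ino80-high (406 wells, Ino80 at 3036 CPM in their summed counts), and wells under 100 CPM are called Ino80-low (440 wells, 18.3 CPM). A further 48 wells lay between these limits (344 CPM) and were left out of the ratio. The sets are ranges of a measured transcript, not genotypes, and Ino80 itself is not a result of the comparison.

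The TCA cycle oxidises acetyl groups in the mitochondrial matrix and passes electrons to the respiratory chain, which heart muscle depends on for most of its ATP. Because the organelle's own genome encodes only a small part of its proteins, the enzymes, carriers and chaperones are made from nuclear genes and imported through the TOM and TIM complexes. Fusion by mitofusins and Opa1, fission by Dnm1l, and the Lon and Clp proteases keep the network and its proteins in order. Nuclear genes of this kind often carry binding sites for the ETS factor GABP and for NRF1 close to their start, and estrogen-related receptors (ERR) act on many of them in heart.

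Promoter windows of 300 bases (250 before to 50 after the start, RefSeq, GRCm38.p6) were available for 42 of the 46 genes; Idh3a, Sdhc, Hspa9 and Vdac2 had none in that table. The letters CCGGAAG, the core bound by GABP and other ETS factors, were found on either strand in 21 of the 42 genes (50%), against 9.93% of all 27025 genes in the table and 22.6% of the 4738 genes that were also measured in the day 3 comparison. The ERR core AAGGTCA was present in 8 (19.0%), against 5.38% of all genes and 3.74% of the measured ones. The palindromic core bound by NRF1, in capitals in the printed Opa1 sequence, was found in 1, Opa1 (2.38%), against 1.07% of all genes and 2.49% of the measured ones. A match describes letters in a window and is not evidence of binding, and a missing match says nothing about the factor.

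The following 120-base stretches end at the base before the RefSeq start. They are shown because the same letters stand in front of genes whose levels lay apart in opposite directions between day 3 wells; capitals mark CCGGAAG or its reverse complement, AAGGTCA in Hspe1, and the NRF1 core in Opa1. Sdhd, Mfn1, Tfam and Opa1 were lower in Ino80-high wells, Tomm70a was higher, and Idh3g and Hspe1 lay within 1.5-fold. In Hspe1 the match and its reverse complement overlap by 4 letters.
Sdhd (chr9:50603850-50603969, minus strand): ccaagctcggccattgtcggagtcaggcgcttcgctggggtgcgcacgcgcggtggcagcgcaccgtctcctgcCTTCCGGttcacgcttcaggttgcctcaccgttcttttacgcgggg
Mfn1 (chr3:32529362-32529481, plus strand): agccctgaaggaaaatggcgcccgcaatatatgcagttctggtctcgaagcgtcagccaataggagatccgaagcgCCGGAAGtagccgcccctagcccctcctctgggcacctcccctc
Tfam (chr10:71238045-71238164, minus strand): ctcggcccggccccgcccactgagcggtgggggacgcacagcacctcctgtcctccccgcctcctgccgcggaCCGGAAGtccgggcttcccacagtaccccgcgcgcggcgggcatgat
Opa1 (chr16:29579214-29579333, plus strand): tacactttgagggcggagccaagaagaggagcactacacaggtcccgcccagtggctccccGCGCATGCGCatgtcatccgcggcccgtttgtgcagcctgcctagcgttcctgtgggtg
Tomm70a (chr16:57121594-57121713, plus strand): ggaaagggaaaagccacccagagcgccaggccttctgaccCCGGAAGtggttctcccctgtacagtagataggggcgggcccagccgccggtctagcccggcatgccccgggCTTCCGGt
Idh3g (chrX:73786898-73787017, minus strand): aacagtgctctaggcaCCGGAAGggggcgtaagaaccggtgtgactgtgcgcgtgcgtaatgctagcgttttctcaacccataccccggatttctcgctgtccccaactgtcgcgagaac
Hspe1 (chr1:55088028-55088147, plus strand): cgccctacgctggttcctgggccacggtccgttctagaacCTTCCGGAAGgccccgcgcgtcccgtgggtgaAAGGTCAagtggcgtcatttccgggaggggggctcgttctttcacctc

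CCGGAAG was present in 10 of the 25 matched genes that were at least 1.5-fold lower in Ino80-high wells, in 1 of the 2 that were higher, and in 9 of the 14 within 1.5-fold. Among the sequences printed above, the match stood 47 to 41 bases before the start in Tfam, 46 to 40 bases in Sdhd and 44 to 38 bases in Mfn1. In Idh3g it lay 104 to 98 bases before the start. Tomm70a had matches 80 to 74 and 8 to 2 bases before it, and Hspe1 80 to 74 and 77 to 71 bases. These positions did not set the lower genes apart. Among lower genes not printed, Slc25a3 had its match 175 to 169 bases and Slc25a4 130 to 124 bases before the start. Timm23, within 1.5-fold, had one 47 to 41 bases before it. Hspd1 and Hspe1, which encode the matrix chaperonin and its lid, are transcribed away from each other, and their windows overlap. The CCGGAAG and AAGGTCA matches of this pair are the same bases, so each shared site is counted for both genes.

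The 3 tables held 1232, 1063 and 1099 wells on days 1, 2 and 3, with median depths of 316120, 349795 and 360693 counts a well. Comparisons used the cardiomyocyte compartment, which is defined by exclusion as the kept wells outside clusters with markers of another cell type, atrial-like wells included; it held 572, 799 and 894 wells. The 12 ventricular cardiomyocyte markers summed to 104163, 107292 and 106028 CPM there, with none at 0. The same muscle RNA was present outside it: Slc25a4 stood at 11731, 9748 and 11739 CPM in macrophage-like wells on days 1, 2 and 3. Mitochondrially encoded counts had a median share of 41.1%, 43.3% and 21.3% of a compartment well. Of 2668 distinct barcodes, 659 occur in more than 1 library and 67 in all 3. Each day is a single library without replicates, and differences are given untested. The 95% intervals cover counting error only, and copies made by amplification inflate the counts behind them.

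In day 3 the genes of the TCA cycle, the shuttle, mitochondrial dynamics and the inner membrane carriers stood lower in Ino80-high than in Ino80-low wells. In summed counts the import receptors Tomm20 and Tomm70a stood higher. Of the 45 genes with a mean of at least 10 CPM (Polg was under it), 28 were at least 1.5-fold lower, against 20.1% of 6005 measured genes, and 2 were at least 1.5-fold higher, against 37.9%. The median log2 ratio was -0.70 over the 45 genes and 0.26 over all measured genes, and 39 of the 45 ratios were below 0. At least 2-fold lower were 11 of the 45, against 11.4% of all measured genes, and 0 were 2-fold higher, against 23.3%. CPM is a share, so less RNA of these genes and more RNA of others cannot be told apart.

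Summed over the 46 genes, the level was 24673 CPM in Ino80-high and 40639 CPM in Ino80-low wells. Without Slc25a4, the most abundant of them, the sums were 15843 and 24274 CPM. Per well, the median was 24936 CPM in Ino80-high wells (quartiles 22452 and 27594) and 40163 CPM in Ino80-low wells (quartiles 37212 and 43596). The interquartile ranges did not overlap, and the 95th percentile of Ino80-high wells, 31654 CPM, lay under the 5th percentile of Ino80-low wells, 33385 CPM. Wells between the limits had a median of 36044 CPM.

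**Figure D1:**
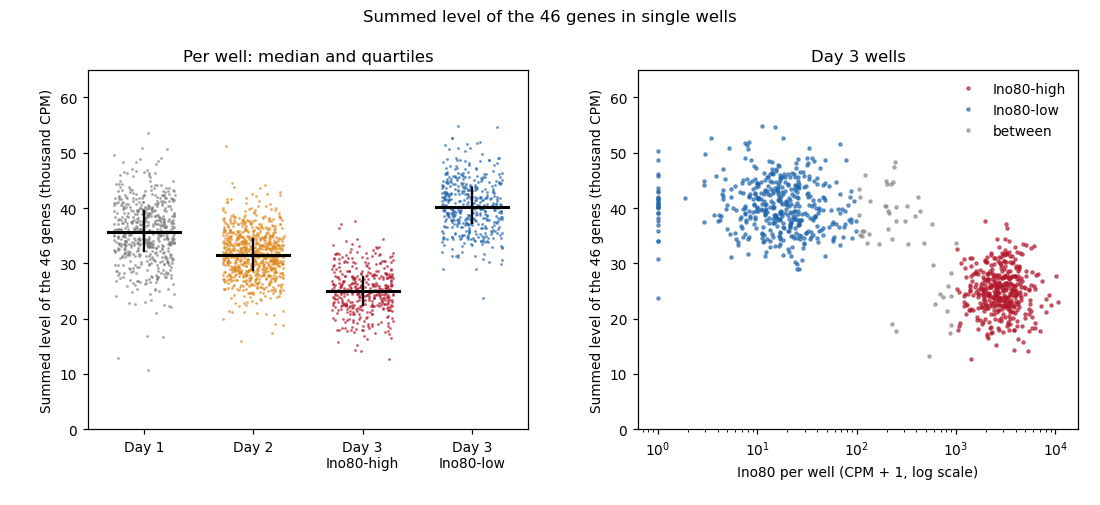
Summed level of the 46 genes in single compartment wells, in units of 1000 CPM. The left panel shows every well of day 1, day 2 and the Ino80-high and Ino80-low sets of day 3, with the median as a horizontal bar and the quartiles as a vertical bar; the right panel shows day 3 wells against Ino80 in CPM + 1 on a log axis. Ino80-high wells have a median of 24936 CPM and Ino80-low wells one of 40163 CPM.

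Day 1 and day 2 wells also had high Ino80, with medians of 2624 and 5079 CPM a well, against 2835 CPM in Ino80-high wells. Over all compartment wells the 46 genes summed to 35890 CPM on day 1 and 31748 CPM on day 2; these wells were not matched to the Ino80-high set on Ino80. Over wells with 30 to 40% mitochondrial counts alone, the sums were 36839 CPM on day 1, 31929 CPM on day 2 and 24079 CPM in Ino80-high wells.

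**Figure D2:**
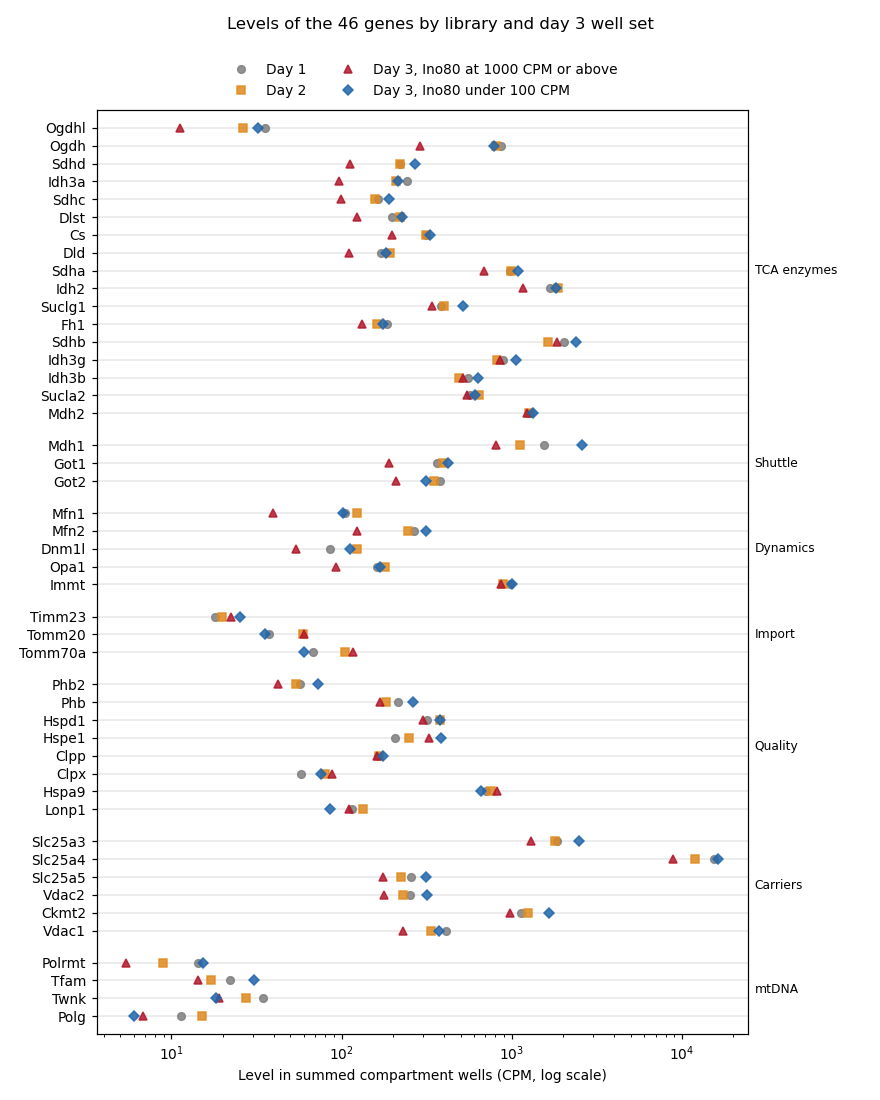
Level of each of the 46 genes in CPM (log axis) in the summed compartment wells of day 1 (circles), day 2 (squares), day 3 Ino80-high (triangles) and day 3 Ino80-low (diamonds), grouped by role. Most TCA, dynamics and carrier genes have their triangle left of the other symbols, whereas Tomm70a has it at 116 CPM, right of the 60.3 CPM of Ino80-low wells.

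All 17 TCA cycle genes had ratios below 0, and 11 were at least 1.5-fold lower. The entry of the cycle was among them: Cs, citrate synthase, had 198 CPM in Ino80-high and 333 CPM in Ino80-low wells (log2 -0.75). Idh2, the NADP-dependent isocitrate dehydrogenase of the matrix, had 1164 and 1827 CPM (-0.65). Within complexes the subunits did not move alike.

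The subunits of the NAD-dependent isocitrate dehydrogenase had unequal ratios. Its catalytic subunit Idh3a stood at 96.1 CPM in Ino80-high and 214 CPM in Ino80-low wells (-1.16, interval -1.19 to -1.13). The other two subunits, Idh3b (518 and 634 CPM, -0.29) and Idh3g (855 and 1052 CPM, -0.30), stayed within 1.5-fold. Their counting intervals, -0.31 to -0.28 and -0.31 to -0.29, lie well apart from that of Idh3a.

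The 2-oxoglutarate dehydrogenase complex was low in each of its components. Ogdh, its first enzyme (chromosome 11, 6291633 to 6356642, plus strand, mm10), had 290.4 CPM in Ino80-high and 789 CPM in Ino80-low wells, a log2 ratio of -1.44 (-1.46 to -1.43). Its per-well quartiles were 86.9 and 455 CPM in Ino80-high wells and 454 and 1108 CPM in Ino80-low wells, so the interquartile ranges barely met. Ogdhl, the Ogdh-like paralog, stood at 11.3 and 32.2 CPM (-1.51); per kilobase of exon it was far below Ogdh, at 2.72 against 53.2 CPM in Ino80-high and 7.75 against 145 CPM in Ino80-low wells. Dlst, the succinyl-transferring subunit, had 123 and 227 CPM (-0.88), and Dld, the dehydrogenase that several such complexes share, 110.1 and 183 CPM (-0.74).

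Succinate dehydrogenase, which is also complex II of the respiratory chain, was split between its anchor and its catalytic part. The membrane anchors Sdhd (111 and 269 CPM, -1.27) and Sdhc (99.2 and 191 CPM, -0.94) were lower than the flavoprotein Sdha (684 and 1082 CPM, -0.66) and the iron-sulfur subunit Sdhb (1835 and 2383 CPM, -0.38). Sdhb overlapped in its quartiles, 1373 to 2290 CPM in Ino80-high and 1752 to 2906 CPM in Ino80-low wells. Suclg1 and Sucla2 join in succinyl-CoA ligase. Suclg1 had 340.2 and 519 CPM (-0.61) and Sucla2 547 and 606 CPM (-0.15). Fumarase, Fh1, had 131 and 176 CPM (-0.42).

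The cytosolic arm of the malate-aspartate shuttle, which carries reducing equivalents into the matrix, held the lowest ratio of all 46 genes. Mdh1, cytosolic malate dehydrogenase (chromosome 11, 21556787 to 21572367, minus strand, mm10), stood at 813 CPM in Ino80-high and 2582 CPM in Ino80-low wells, a log2 ratio of -1.67 (-1.68 to -1.66). Per well, its quartiles were 557 and 995 CPM in Ino80-high wells, against 2121 and 3109 CPM in Ino80-low wells. Its matrix paralog Mdh2, a TCA enzyme, had 1229 and 1333 CPM (-0.12). Per kilobase, Mdh1 and Mdh2 were at 317 and 345 CPM in Ino80-high wells and at 1006 and 374 CPM in Ino80-low wells, so the order of the pair differed between the sets. The aspartate aminotransferases showed a smaller gap of the same kind: cytosolic Got1 had 191 and 422 CPM (-1.14) and matrix Got2 209 and 313 CPM (-0.59).

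**Figure D3:**
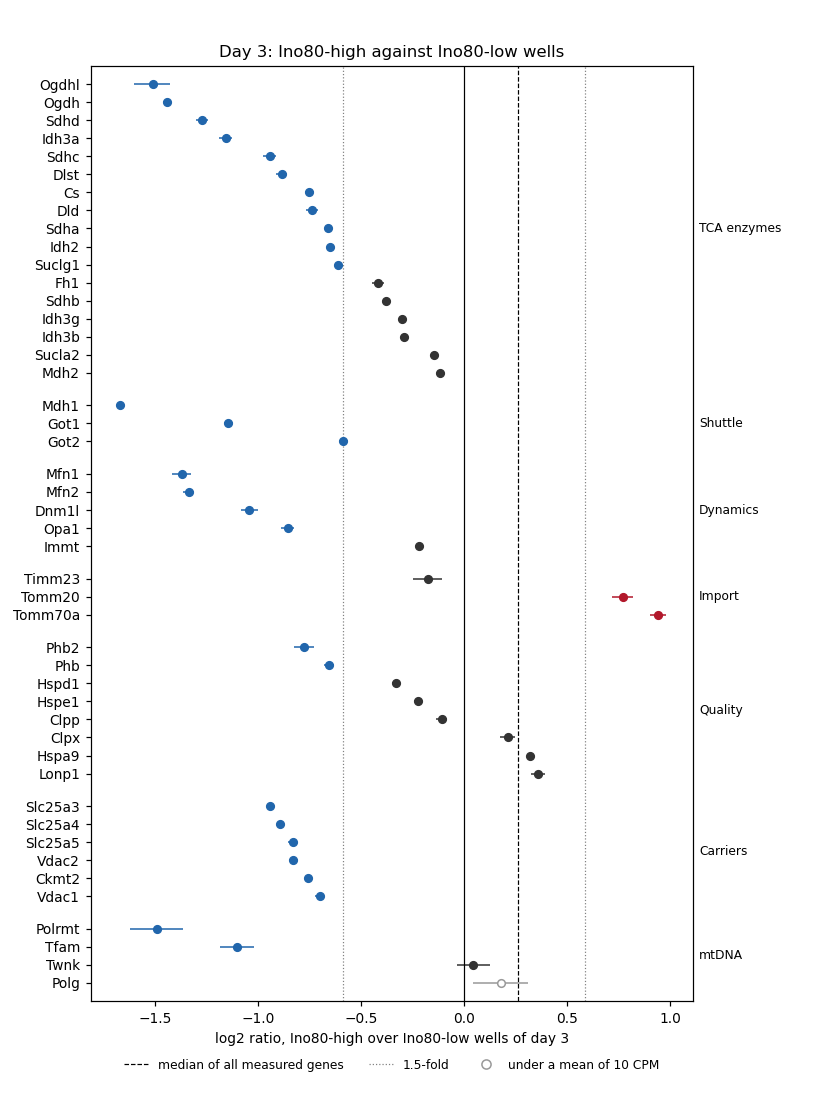
Log2 ratio of Ino80-high over Ino80-low wells of day 3 for each gene, by role, with 95% counting intervals; blue and red mark genes at least 1.5-fold lower or higher, and the open circle is Polg, under a mean of 10 CPM. The dashed line is the median of all measured genes, 0.26, and only 4 of the 45 measured genes, Tomm70a, Tomm20, Lonp1 and Hspa9, lie right of it.

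Among the genes of mitochondrial shape, those of fusion and fission were lower together. The outer membrane mitofusins Mfn1 (39.4 CPM in Ino80-high, 102 CPM in Ino80-low wells, -1.37) and Mfn2 (123 and 311 CPM, -1.33) had nearly the same ratio, although Mfn2 was the more abundant per kilobase, at 23.8 against 6.45 CPM in Ino80-high wells. Dnm1l, the fission GTPase Drp1, had 54.1 and 111 CPM (-1.04). Opa1, which fuses inner membranes, had 93.2 and 169 CPM (-0.86). Immt, the mitofilin that holds cristae junctions, had 866 and 1006 CPM (-0.22) and stayed within 1.5-fold.

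Protein import was the one role with genes at least 1.5-fold higher. Tomm70a (chromosome 16, 57121703 to 57156705, plus strand, mm10), a receptor for carrier precursors, had 116 CPM in Ino80-high and 60.3 CPM in Ino80-low wells (0.94, interval 0.90 to 0.98). Tomm20, the receptor for presequences, had 60.5 and 35.5 CPM (0.77). Timm23, the channel of the inner membrane, had 22.4 and 25.3 CPM (-0.18). The median well held 31.7 CPM of Tomm70a in the Ino80-high set and 8.35 CPM in the Ino80-low set, and for Tomm20 the medians were 12.6 and 12.2 CPM. The upper quartiles of Tomm20 were 42.0 and 34.7 CPM, so its gap lay in the wells with more of it. In wells with 25 to 35% mitochondrial counts the Tomm20 ratio was 0.09.

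The 8 genes of protein quality control were divided. The prohibitins Phb (167 and 264 CPM, -0.66) and Phb2 (42.4 and 72.6 CPM, -0.78), which form a scaffold ring in the inner membrane, were at least 1.5-fold lower. The matrix Hsp70 Hspa9 had 820.4 CPM in Ino80-high and 658 CPM in Ino80-low wells (0.32), the Lon protease Lonp1 110.2 and 85.9 CPM (0.36), and Clpx, the unfoldase of the Clp protease, 87.6 and 75.6 CPM (0.21). Clpx lay at -0.05 with median-of-ratios scaling, which moves the median of all genes by 0.26. The chaperonin Hspd1 (-0.33), its lid Hspe1 (-0.22) and the protease subunit Clpp (-0.11) were also within 1.5-fold.

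All 6 carriers, pores and creatine kinase were at least 1.5-fold lower, within a narrow range of ratios. Slc25a4, the ADP/ATP exchanger of heart and skeletal muscle (chromosome 8, 46206797 to 46211284, minus strand, mm10), had 8830 CPM in Ino80-high and 16365 CPM in Ino80-low wells (-0.89), with per-well quartiles of 6794 and 10462 CPM against 12887 and 18631 CPM. Its widely expressed paralog Slc25a5 had 175 and 312 CPM (-0.83). Per kilobase the pair stood at 3753 and 107 CPM in Ino80-high wells and at 6955 and 190 CPM in Ino80-low wells. Slc25a3, the phosphate carrier, had 1291 and 2480 CPM (-0.94), and Ckmt2, the creatine kinase of muscle mitochondria, 973 and 1643 CPM (-0.76). The outer membrane pores Vdac1 (231 and 375 CPM, -0.70) and Vdac2 (178 and 317 CPM, -0.83) were lower to a similar extent.

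The 4 genes that keep and read mitochondrial DNA summed to 45.4 CPM in Ino80-high and 70.1 CPM in Ino80-low wells. Tfam, which packages the genome and starts its transcription, had 14.2 CPM in Ino80-high and 30.5 CPM in Ino80-low wells (-1.10, interval -1.18 to -1.02). Polrmt, the mitochondrial RNA polymerase, had 5.44 and 15.3 CPM (-1.49), but 1 well gave 29.5% of its counts in the Ino80-high set. It reached the mean of 10 CPM only through Ino80-low wells, and it is counted among the genes at least 1.5-fold lower. Twnk, the helicase, had 18.9 and 18.3 CPM (0.05), and Polg, the polymerase subunit that copies the genome, 6.77 and 5.99 CPM. Taken gene by gene, the per-well median of each was 0 in both sets; for the 4 summed it was 4.64 CPM in Ino80-high and 16.7 CPM in Ino80-low wells.

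Other measures also differed between the day 3 sets. The 12 ventricular markers summed to 74291 CPM in Ino80-high and 127077 CPM in Ino80-low wells. Of the 12, 8 were at least 1.5-fold lower, against 20.1% of all measured genes. The macrophage markers summed to 211 and 38.9 CPM, with none of the 10 at 0 in either set. Under 5 CPM were 3 of the 10 in Ino80-high and 8 in Ino80-low wells. C1qb, Cd68, Csf1r and Cx3cr1 reached the mean of 10 CPM only through Ino80-high wells, which fixes their direction. No count of macrophage markers past 1.5-fold is therefore given. Atrial markers summed to 2542 and 1066 CPM (7 of 8 higher, 1 lower) and endothelial markers to 1136 and 506 CPM (6 of 8 higher). Erythroid markers summed to 661 and 122 CPM (3 of 3 higher) and fibroblast markers to 254 and 177 CPM (2 of 4 higher). Of the fibroblast markers counted higher, Col1a2 (16.6 and 3.64 CPM) reached the mean of 10 CPM only through Ino80-high wells, which fixes its direction. Whether the counts of other marker lists hold such genes is not given. Pericyte and smooth muscle markers summed to 463 and 411 CPM (3 higher and 2 lower of 7). Beside these counts, 37.9% of all measured genes were at least 1.5-fold higher and 20.1% lower. The median depth was 306169 counts in Ino80-high and 437832 counts in Ino80-low wells, and the median mitochondrial share 19.6% and 22.3%. Cluster 2, led by Sprr1a, held 99.8% of Ino80-high wells, and cluster 10 held 98.2% of Ino80-low wells. The part of the markers and clusters in the result was not tested.

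The ratios were also taken with depth or mitochondrial share held alike. With every well thinned to 30000 counts, the median ratio of the genes was -0.63 and 27 were lower. Among wells with 25 to 35% mitochondrial counts (44 Ino80-high and 79 Ino80-low wells), it was -0.64 and 24 were lower. Over wells with under 20% mitochondrial counts the summed level was 25196 CPM in Ino80-high and 43011 CPM in Ino80-low wells, over those with 20 to 30% it was 23191 and 39948 CPM, and over those with 30 to 40% it was 24079 and 37444 CPM.

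The same division by Ino80 was seen in wells named as other cell types. Of 44 measured genes, 25 were lower and 3 higher between the 42 Ino80-high and 32 Ino80-low macrophage-like wells of day 3, against 24.6% and 45.0% of all measured genes, with a median of -0.63. In fibroblast-like wells (32 and 45 wells) 29 were lower and 1 higher of 44, against 26.7% and 46.4%, with a median of -1.07. Fibroblast markers summed to 3890 and 3702 CPM in these sets, but single ones lay apart. Col1a1 had 130 and 14.9 CPM (3.12), Col1a2 374 and 44.8 CPM (3.06), Col3a1 694 and 135 CPM (2.36) and Dpt 91.5 and 53.7 CPM (0.77). Pdgfra (14.1 and 38.2 CPM, -1.44) and Gsn (991 and 1684 CPM, -0.77) went the other way. Dcn, Lum and Mmp2 lay within 1.5-fold. The part of these markers was not tested. Macrophage markers summed to 3446 and 3045 CPM in the macrophage-like sets, but single ones lay apart there too. Mrc1 (226 and 113 CPM) and Cd68 (223 and 143 CPM) were at least 1.5-fold higher in Ino80-high wells. So were Cx3cr1 (33.01 and 19.4 CPM) and Fcgr1 (21.7 and 6.29 CPM). Fcgr1 reached the mean of 10 CPM only through Ino80-high wells, which fixes its direction. Adgre1 (15.7 and 24.97 CPM) went the other way. C1qa, C1qb, C1qc, Csf1r and Lyz2 lay within 1.5-fold. The part of the macrophage markers was not tested either. The muscle myosin Myh6 was abundant in both classes. It stood at 4285 and 14721 CPM in macrophage-like and 2965 and 15151 CPM in fibroblast-like wells, against 4619 and 16144 CPM in the compartment.

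Ratios of single genes were not the same in each class. Lonp1, at 0.36 in the compartment, had 77.1 CPM in Ino80-high and 42.9 CPM in Ino80-low macrophage-like wells (0.85), but 16.4 and 119.9 CPM in fibroblast-like wells (-2.87). Clpp, at -0.11 in the compartment, had 142 and 79.1 CPM in macrophage-like (0.85) and 198 and 158 CPM in fibroblast-like wells (0.33). Mdh1 had 632 CPM in Ino80-high and 2441 CPM in Ino80-low macrophage-like wells (-1.95), and 515 and 2582 CPM in fibroblast-like wells (-2.33). Slc25a4 had 7458 and 15433 CPM in macrophage-like wells (-1.05). Tomm70a was high in macrophage-like wells (97.53 and 22.8 CPM, 2.10) and near level in fibroblast-like ones (87.9 and 73.1 CPM, 0.27). Tomm20 had 30.02 and 32.3 CPM in macrophage-like (-0.11) and 55.1 and 19.8 CPM in fibroblast-like wells (1.48). Dnm1l had 133 and 89.8 CPM in fibroblast-like wells (0.56), the opposite direction to the compartment, and Slc25a5 282.5 and 272 CPM (0.056). These sets are small, and whether a class differs from the compartment was not tested.

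**Figure D4:**
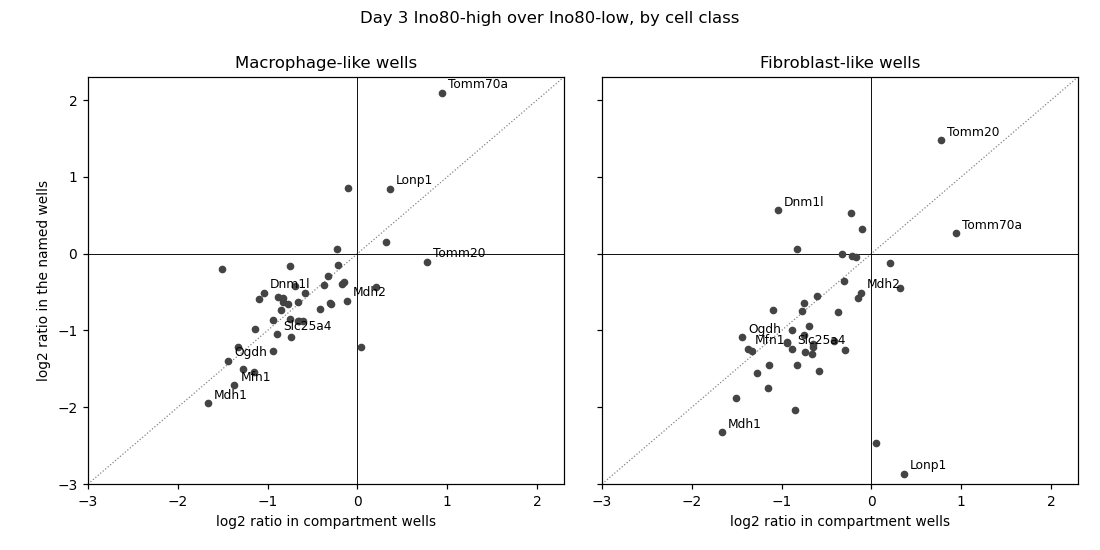
Log2 ratio of Ino80-high over Ino80-low wells of day 3 in macrophage-like (left) and fibroblast-like wells (right) against the same ratio in compartment wells; each point is 1 gene, and the dotted line marks equal ratios. Mdh1, Ogdh, Mfn1 and Slc25a4 are below 0 on both axes of both panels, and Dnm1l is above 0 in fibroblast-like wells.

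Further genes of the same pathways, 131 in a list drawn up with earlier results of these data known, were read beside them. Of the 94 measured between the day 3 sets, 36 were at least 1.5-fold lower (38.3%, against 20.1% of all measured genes) and 7 higher (7.45%, against 37.9%). Their median was -0.35, beside 0.26 for all measured genes. Among the lower ones, Pcx, Sdhaf3, Timm21, Slc25a26, Ucp3, Tefm, Mterf2, Mterf4 and Esrrb reached the mean of 10 CPM only through Ino80-low wells. Of the higher ones, Acly reached it only through Ino80-high wells. The direction of these genes was thereby fixed. Import genes held 5 lower and 2 higher of 21. Among them the receptor Tomm22 had 37.3 CPM in Ino80-high and 41.7 CPM in Ino80-low wells (-0.16). Carriers and channels held 8 lower of 12, and biogenesis regulators 4 lower of 6. Fission genes went different ways. Fis1 was at least 1.5-fold higher, at 607 CPM in Ino80-high and 390 CPM in Ino80-low wells (0.64). Mff lay within 1.5-fold, at 55.7 and 60.0 CPM (-0.11). The lowest were Mtfp1, an inner membrane fission protein, at 17.4 CPM in Ino80-high and 233 CPM in Ino80-low wells (-3.74), Mterf2 at 2.75 and 25.04 CPM (-3.19), the aspartate-glutamate carrier Slc25a13 at 12.1 and 75.9 CPM (-2.65), and the coactivator Ppargc1a at 15.8 and 98.6 CPM (-2.64). At the other end stood Acly, the cytosolic citrate lyase, at 17.6 and 7.23 CPM (1.29), the tRNA-processing genes Trmt10c at 60.9 and 26.4 CPM (1.20) and Elac2 at 53.4 and 23.6 CPM (1.18), and Gfer, of the intermembrane space import relay, at 114 and 52.5 CPM (1.11).

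Between the libraries of day 2 and day 1 the 46 genes were nearly level. At least 1.5-fold higher were 2 of 46, against 16.1% of 6465 measured genes, and 1 was lower, against 6.56%. None of the 46 was 2-fold higher (4.56% of measured genes) or 2-fold lower (1.81%). The median log2 ratio was -0.016, beside 0.12 for all genes. Summed, the genes stood at 31748 CPM on day 2 and 35890 CPM on day 1, and without Slc25a4 at 19899 and 20535 CPM.

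Tomm20 and Tomm70a were again the higher ones. Tomm20 had 59.2 CPM on day 2 and 37.4 CPM on day 1 (0.67), and Tomm70a had 105 and 67.7 CPM (0.63). Next came Dnm1l (124 and 85.7 CPM, 0.53), Clpx (79.6 and 57.4 CPM, 0.47), Polg (15.2 and 11.4 CPM, 0.41) and Hspe1 (250.2 and 205 CPM, 0.29). Polrmt was the lower one, at 8.93 and 14.3 CPM (-0.68). It reached the mean of 10 CPM only through its day 1 level. With 5 CPM added to both sides, or with a mean of at least 50 CPM, 0 genes were lower. In wells with 25 to 35% mitochondrial counts Tomm70a lay at -0.21. In wells with at least 5000 counts and 1000 genes, reclustered (411 wells of day 2 and 229 of day 1), Polrmt lay at 0.16. Neither direction held in every selection of wells.

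The next lowest ratios of day 2 to day 1 belonged to Mdh1 (1119 and 1536 CPM, -0.46), Ogdhl (26.4 and 35.3 CPM, -0.42), Slc25a4 (11849 and 15355 CPM, -0.37), Tfam (17.2 and 21.9 CPM, -0.35) and Twnk (27.3 and 34.6 CPM, -0.34). Of these, Tfam lay at 0.06 when all kept wells were used. The paralog pairs were otherwise close: Mfn1 at 0.23 and Mfn2 at -0.12, Vdac1 at -0.29 and Vdac2 at -0.14, Got1 at 0.12 and Got2 at -0.12, Mdh2 at -0.02, Ogdh at -0.09 and Slc25a5 at -0.19. Erythroid markers summed to 430 CPM on day 2 and 37.2 CPM on day 1, atrial markers to 215 and 6865 CPM, and endothelial markers to 1157 and 581 CPM; their part was not tested.

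The day 3 library, taken whole, mixes its Ino80 sets and the wells between them. Against day 1, which also serves the day 2 comparison, 1 of 45 genes was at least 1.5-fold higher (11.6% of 6177 measured genes) and 1 lower (19.2%). At 2-fold there were 0 higher, against 4.86%, and 0 lower, against 6.14%. The median ratio was 0.0052, beside -0.12 for all genes. Hspe1 (chromosome 1, 55088132 to 55091307, plus strand, mm10), the chaperonin lid, was the higher one, at 362 CPM on day 3 and 205 CPM on day 1 (0.82, interval 0.80 to 0.84). It was high in both sets of day 3, at 327 CPM in Ino80-high and 382 CPM in Ino80-low wells. Its partner Hspd1 had 347 CPM on day 3 and 318 CPM on day 1 (0.12).

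Twnk was the lower one, at 18.1 CPM on day 3 and 34.6 CPM on day 1 (-0.93); 1 well gave 17.4% of its day 1 counts. Highest after Hspe1 were Clpx (80.0 and 57.4 CPM, 0.48), Timm23 (24.3 and 18.0 CPM, 0.44), Tomm70a (84.7 and 67.7 CPM, 0.32), Tomm20 (46.5 and 37.4 CPM, 0.32) and Mdh1 (1882 and 1536 CPM, 0.29). The lowest after Twnk were Ogdhl (24.2 and 35.3 CPM, -0.54), Idh3a (168 and 243 CPM, -0.53), Ogdh (597 and 859 CPM, -0.53), Got2 (274 and 381 CPM, -0.47) and Mfn1 (77.3 and 105 CPM, -0.44). The day 1 level of Ogdhl took 18.8% of its counts from 1 well, and its median well held 3.96 CPM on day 3 and 3.02 CPM on day 1. Ogdh, Ogdhl and Mfn1 lay at 0.17, 0.12 and 0.26 in wells with 25 to 35% mitochondrial counts, and Tomm20 at -0.26. Mitochondrially encoded RNA made up 23.6% of the summed counts on day 3, against 41.1% on day 1. Divided by all counts instead of nuclear-encoded ones, 8 genes were at least 1.5-fold higher and the median was 0.39. That divisor shifts every nuclear-encoded gene by the same amount, so the rise is not particular to these genes. The share of all measured genes under it is not given. In wells with at least 5000 counts and 1000 genes, reclustered, 8 genes were lower, 2 were higher and the median was -0.050. Reclustering also changed the compartment, from 894 wells of day 3 and 572 of day 1 to 932 and 229. It named 387 wells of day 1 endothelial-like and 328 pericyte and smooth muscle-like. The share of all measured genes in these wells is not given.

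For some genes the Ino80 sets of day 3 lay on either side of the earlier days. Slc25a3 had 1842 CPM on day 1 and 1782 CPM on day 2, with 1291 CPM in Ino80-high and 2480 CPM in Ino80-low wells of day 3. Other genes set only the Ino80-high wells apart: Ogdh had 859 and 809 CPM on days 1 and 2, 290.4 CPM in Ino80-high and 789 CPM in Ino80-low wells. Mfn1 followed the second pattern, with 105, 123, 39.4 and 102 CPM in the same order of wells, and so did Idh3a, with 243, 209, 96.1 and 214 CPM.

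**Figure D5:**
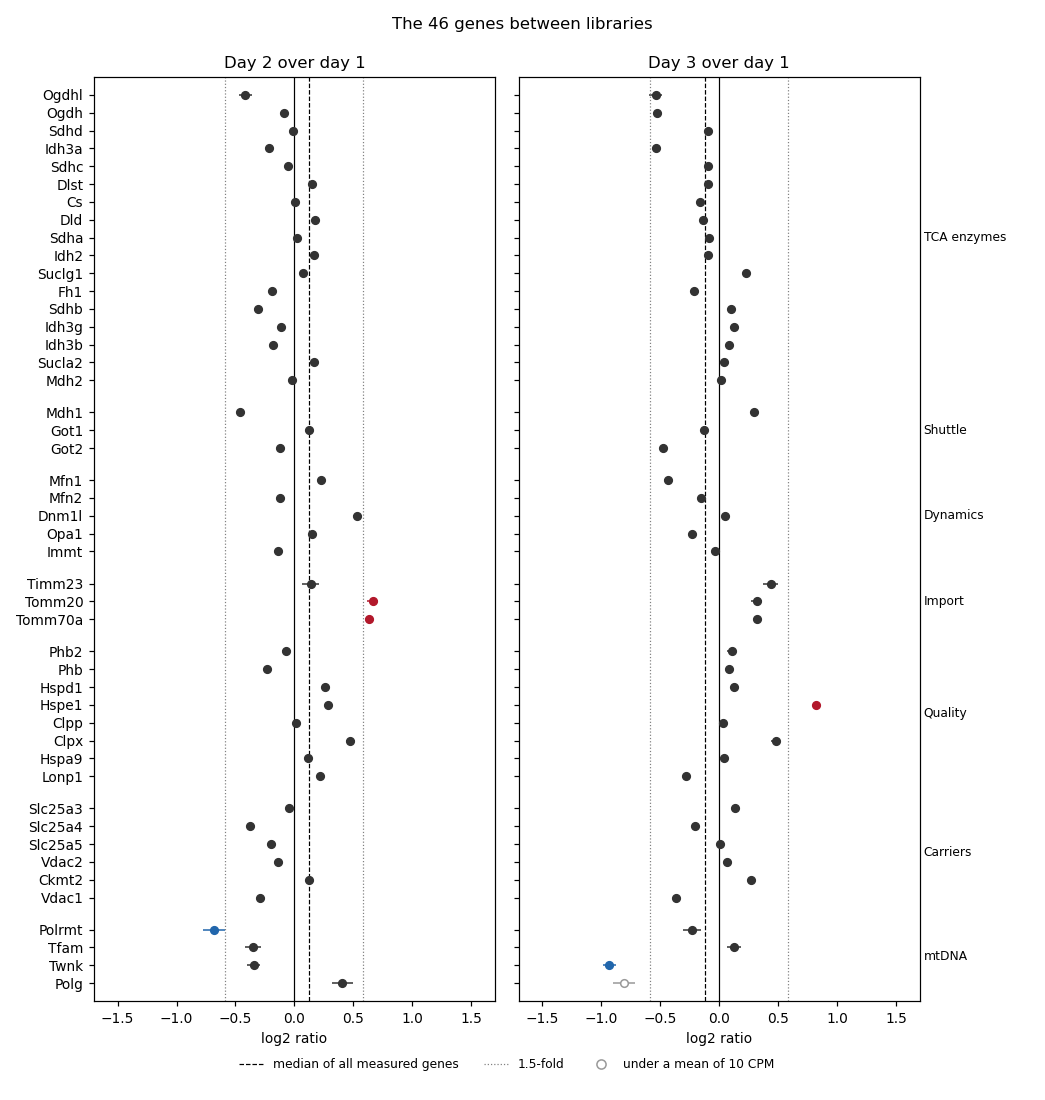
Log2 ratio of each gene for day 2 over day 1 (left) and day 3 over day 1 (right), by role, with 95% counting intervals; dashed lines are the medians of all measured genes, 0.12 and -0.12, and both panels share the day 1 library. Past 1.5-fold lie Tomm20, Tomm70a and Polrmt on the left, and Hspe1 and Twnk on the right.

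Of the other pathway genes, 12 of 97 measured were at least 1.5-fold higher on day 2 than on day 1 (12.4%, against 16.1% of all measured genes) and 4 lower (4.12%, against 6.56%). On day 3, 8 of 95 were higher than on day 1 (8.42%, against 11.6%) and 6 lower (6.32%, against 19.2%). Among the higher ones, Pcx on day 2 and Timm21 on day 3 reached the mean of 10 CPM only through the later day. Among the lower ones, D2hgdh reached it only through day 1 in both comparisons. Their direction was thereby fixed. Some of the 46 genes share sequence with neighbours or copies, which the counting could not always separate. Transcripts of Got2, Phb, Hspd1, Hspe1, Clpx, Timm23, Tomm20, Vdac2, Slc25a5 and Polg have a stretch of at least 300 bases at 95% identity or more in another annotated gene, so their levels are uncertain. The exons of Idh3b, Mdh1, Tomm70a, Twnk, Polg and Vdac2 overlap those of Nop56, Wdpcp, Nit2, Mrpl43, Fanci and Comtd1 on the opposite strand, and those of Hspd1 and Hspe1 overlap each other. Got2, Dnm1l, Phb2, Immt and Ckmt2 overlap less well described genes on the opposite strand, and Phb2 and Timm23 also one on their own strand. Reads of such partners cannot be told apart here, since the strand setting of the counting is not given in the sources used here.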

How the data were processed

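The deposited tables hold raw counts per gene and well barcode, unnormalized whole numbers. Per the submitters' processing notes, cutadapt, STAR and featureCounts were used with the build mm10; their versions, the annotation, the strand setting and any removal of duplicates are not given there. All columns belong to the 3 libraries, with 0 of other samples; the barcode lists were not used. GENCODE M21 gave symbols for 55141 of 55401 identifiers. The genes, roles, marker lists and further pathway genes were chosen with earlier results of these data known.

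Wells with at least 1000 counts and 300 genes were kept (1225, 1059 and 1092). They were clustered in scanpy 1.11.5 (anndata 0.12.19, igraph 0.11.9): counts scaled to 10000, log-transformed, 2000 variable genes, each scaled and limited to 10, 30 principal components, 15 neighbours, Leiden clustering at resolution 0.5. Scaling and the number of Leiden iterations were settled after other clusterings of these wells had been seen. A cluster was named for a cell type if 3 or more of the type's markers reached 20 CPM at 2-fold over the remaining wells, unless the 10 genes leading it spoke against the name. Other settings may give other names. No doublet caller was run, since wells were chosen by imaging, per the labels' protocols.

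Counts were summed over wells and divided by the nuclear-encoded total, to counts per 1000000 (CPM). Intervals of log2 ratios (95%, exact) treat each gene's counts as split binomially between both sides, with a floor of 3 counts for 0. Genes with a mean of at least 10 CPM over both sides were called measured and counted past 1.5-fold. Nothing in the labels says that wells of a library come from more than 1 animal. With 1 library per group there is no p-value. Genes given with values are those past 1.5-fold, or the 6 highest and 6 lowest where fewer lay on a side, the 4 genes of mitochondrial DNA, and paralog pairs. Of further pathway genes, the 4 highest and 4 lowest are given, and also Tomm22, Fis1 and Mff. The ratio, its interval and the counting were checked on simulated counts with known changes. Promoters are RefSeq's; copies of transcripts were sought with blastn 2.17.0. Alternatives covered scaling, wells, clustering, depth, low values and Ino80 limits; leaving out the day 2 cluster led by Cstad and C1qtnf9, and fibroblast-like wells, were added after seeing the data.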

Additional observations from a re-analysis of the deposited data

How the results depend on the processing

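No paired analysis was possible because each group is 1 library and the labels carry no replicate numbers; for the same reason none was left out. Tfam, Polrmt, Twnk and Polg had a count in at most 48.6% of the wells of any set. Differences between libraries cannot be told apart from those between animals. Counts of genes under the alternatives below stand without the share of all measured genes, except at 2-fold and in macrophage-like and fibroblast-like wells, given above. They are therefore not read as particular to these genes.

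Between Ino80-high and Ino80-low wells the median over the genes (-0.70) stayed below 0 in every alternative run. It was -0.66 with the total over all genes, -0.96 with median-of-ratios scaling, -0.64 in wells with 25 to 35% mitochondrial counts, -0.67 in wells with at least 5000 counts and 1000 genes (stricter wells), -0.64 as a mean over wells, -0.63 with thinned wells, -0.63 in macrophage-like wells and -1.07 in fibroblast-like wells. The count of genes lower (28) ranged within 1.5 times of it except at 2-fold (11); that of genes higher (2) was 1 with median-of-ratios scaling, with a mean of at least 50 CPM and in fibroblast-like wells, and 0 at 2-fold. Among genes past 1.5-fold, directions turned for Tomm20 in macrophage-like wells (-0.11) and for Slc25a5 (0.056) and Dnm1l (0.56) in fibroblast-like wells; the cause was not tested. Over 35 genes given with values and their alternatives, 436 of 450 ratios kept their direction.

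For day 2 against day 1 the median (-0.016) was 0.00717 with the total over all genes, -0.14 with median-of-ratios scaling, 0.0331 with all kept wells, -0.042 at 25 to 35% mitochondrial counts, 0.013 with stricter wells, -0.040 without atrial-like wells, 0.0254 with 1000 variable genes, -0.062 as a mean over wells, -0.066 thinned and 0.050 without the C1qtnf9-led cluster. Genes higher (2) numbered 0 with median-of-ratios scaling and at 2-fold, 1 with all kept wells, stricter wells, a mean over wells, thinning and at least 50 CPM, and 4 without that cluster. Genes lower (1) numbered 0 with the total over all genes, stricter wells, at least 50 CPM, 5 CPM added and at 2-fold, and 2 at 25 to 35% mitochondrial counts. Tomm70a turned to -0.21 at 25 to 35% mitochondrial counts and Polrmt to 0.16 in stricter wells. Stricter wells were clustered anew, which left 411 compartment wells of day 2 and 229 of day 1, against 799 and 572.

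For day 3 against day 1 the median (0.0052) was 0.39 with the total over all genes, which counts the mitochondrial share in, 0.12 with median-of-ratios scaling, 0.091 at 25 to 35% mitochondrial counts, -0.050 with stricter wells, -0.017 with 1000 variable genes, -0.063 as a mean over wells, -0.068 thinned and -0.014 with at least 5 CPM. Genes higher (1) numbered 8 with the total over all genes, 2 with median-of-ratios scaling and stricter wells, 4 at 25 to 35% mitochondrial counts and 0 at 2-fold. Genes lower (1) numbered 0 with the total over all genes, at least 50 CPM and at 2-fold, 2 at 25 to 35% mitochondrial counts, without atrial-like wells, thinned and at least 5 CPM, 3 as a mean over wells and 8 with stricter wells. Stricter wells numbered 932 on day 3 and 229 on day 1 after the new clustering. The cause of these shifts was not tested.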
